A study of Homo sapiens with 16 samples.

Results

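Accessible chromatin was compared between Rh30 cells kept for 24 h in 500 nM dTAG47 and the same cells given DMSO, over every region of 1 deposited count table. Of the 16 libraries of the series, 4 carry this comparison: 2 libraries of 24 h dTAG47 and 2 of DMSO from the experiment that the labels call 6086. The 2 h and 4 h dTAG47 groups of that experiment, 2 libraries each, entered the same fit and give the course before 24 h. A separate experiment, 6211, with its own DMSO libraries and dTAG47 times up to 2 h, shares no library with it. Rh30 is an established human alveolar rhabdomyosarcoma line. All groups, the DMSO controls included, carried PAX3-FOXO1 joined to an FKBP tag, and cells without the tag were not analysed here. The labels do not say whether the tagged line is 1 clone, nor whether replicates were grown apart. The p-values therefore reflect library-to-library variation, part or all of which may be technical. All 56949 regions of the table were members, and 56945 passed the filter on low counts and were tested.

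Alveolar rhabdomyosarcoma is a childhood tumour of cells that resemble arrested muscle precursors. In most cases a translocation joins the DNA-binding part of PAX3, a transcription factor of muscle progenitors, to the activation domain of FOXO1, and the fusion protein binds enhancers, many of them shared with the myogenic factors MYOD1 and MYOG. dTAG47 bridges the FKBP tag to a ubiquitin ligase, which marks the tagged protein for the proteasome. In ATAC-seq a transposase cuts and tags open DNA, so that the reads over a region rise with its accessibility. An effect of losing the fusion cannot be told apart here from other effects of dTAG47, and the level of the fusion itself was not analysed here.

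Reads in regions numbered 18038062 and 25803905 in DMSO libraries A and B, and 30091821 and 31308682 in 24 h libraries A and B. DMSO library A was thus the shallowest of the 8. Replicates had Spearman correlations of 0.987 (DMSO) and 0.992 (24 h) across regions. Levels are in CPM, the reads of a region relative to all reads in regions of that library, adjusted by edgeR's TMM factors, and a change is the log2 ratio of 24 h to DMSO. A region was called at a Benjamini-Hochberg adjusted p under 0.05 in edgeR's quasi-likelihood test over all regions, and every adjusted p below comes from that test. The deposited table holds no gene names. Genes beside regions were assigned from general knowledge of hg19 positions, with their chromosome and order checked against RefSeq GRCh38.p14, and no target gene of a region was measured. As a check of the cells, the start of MYOD1 was open in DMSO at 91.6 and 96.3 CPM and that of MYOG at 80.7 and 84.0 CPM. Of 4 genes that mark other cell types, EPCAM had a region within 2 kb of its start (9.41 and 8.10 CPM in DMSO), while PTPRC, ALB and GFAP had none among the regions tested.

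After 24 h of dTAG47, 10611 regions (18.6% of those tested) were less accessible and 7742 (13.6%) more accessible than in DMSO. Losses were the larger changes. Among called regions, 1109 had fallen at least 2-fold (1.95% of those tested) and 248 had risen at least 2-fold (0.436%). Of the losses, 81 had log2 changes between -3 and -2 and 10 lay below -3, while 17 gains exceeded 1.5 and the highest was 2.21. Most calls were small: 6815 losses and 5961 gains lay within 0.585 of 0 on the log2 scale, which is 1.5-fold. The median log2 change over all regions was -0.003, near the 0 that TMM scaling assumes, and a uniform change over all regions would not be seen. Without regard to the test, both 24 h libraries lay below both DMSO libraries in 32.4% of regions and above them in 29.5%.

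**Figure D1:**
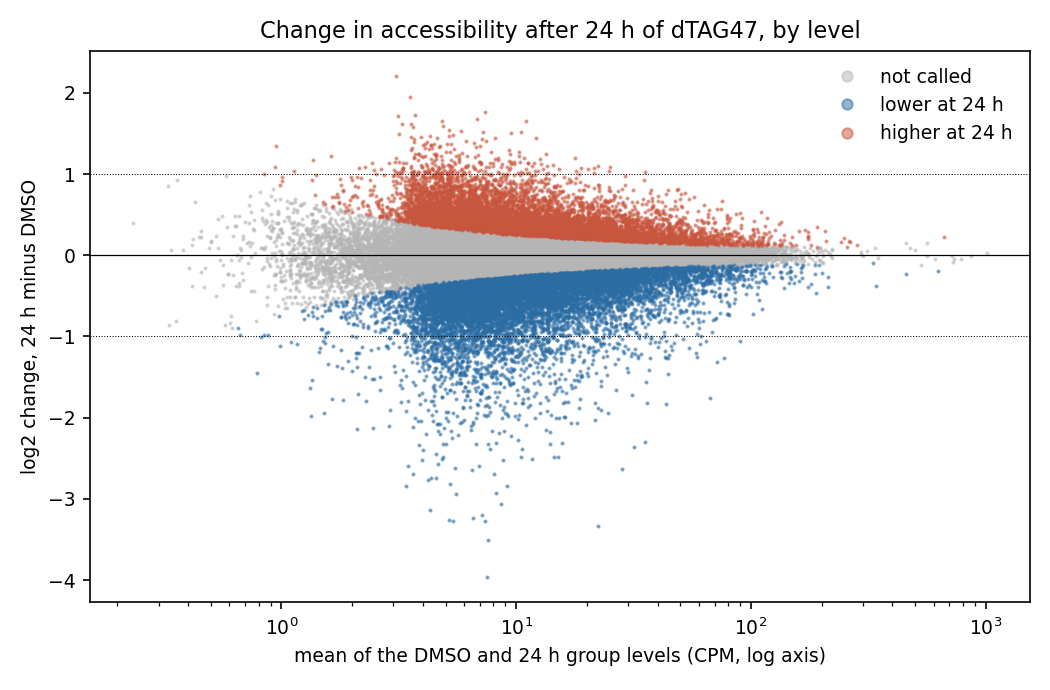
Log2 change of accessibility (24 h minus DMSO) of each region against the mean of its DMSO and 24 h levels in CPM (log axis), 1 point per region, with called regions in blue (lower) and red (higher) and dotted lines at 2-fold. The 10611 losses reach a log2 change of -3.97, while the 7742 gains stop at 2.21.

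Large gains were found in weak, narrow regions. The 248 regions that rose at least 2-fold had a median width of 239.5 bp and median levels of 3.19 CPM in DMSO and 7.15 CPM at 24 h. The 1109 regions that fell at least 2-fold had a median width of 303 bp and went from a median of 10.4 to 4.02 CPM, against a median width of 320 bp over the table. When regions were divided into 4 equal groups by mean CPM, 1.22% of the weakest group had risen at least 2-fold and 0.014% of the strongest, where 2 such regions were found. Losses of that size made up 3.08% of the weakest and 0.555% of the strongest group. Calls of any size varied less, between 15.2% and 21.3% for losses and between 11.8% and 15.6% for gains. The scatter of counts is also widest in weak regions, and its part in these shares was not tested.

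**Figure D2:**
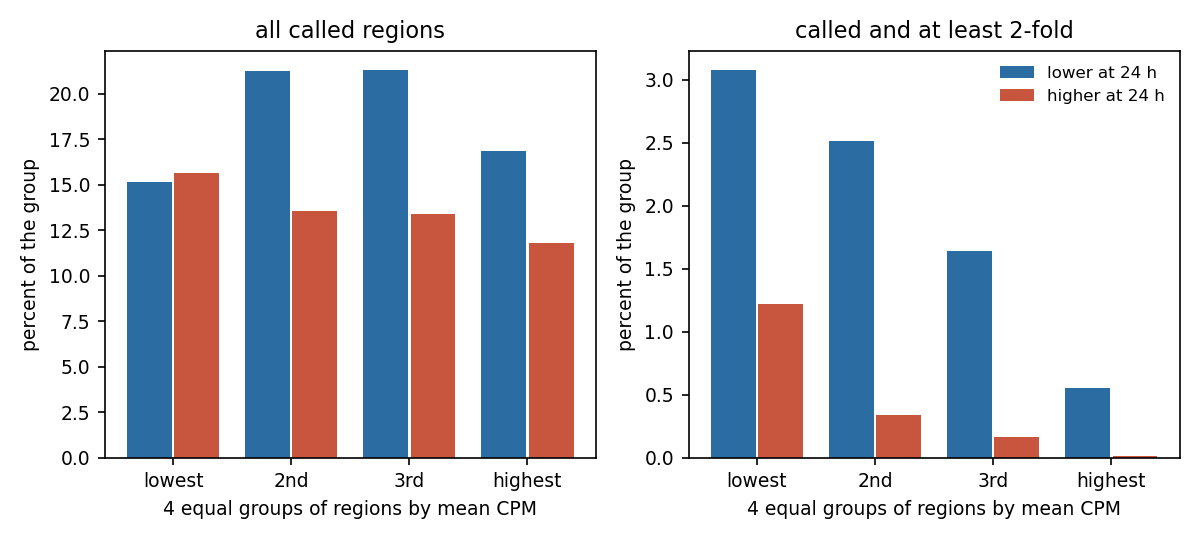
Percent of regions called lower (blue) or higher (red) at 24 h in each of 4 equal groups of the tested regions by mean CPM over the 8 libraries, for all calls (left) and for calls of at least 2-fold (right). In the right panel the shares fall from 3.08% and 1.22% in the weakest group to 0.555% and 0.014% in the strongest.

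The deepest losses brought regions to a few CPM or less. The largest was inside KCNIP1, which encodes a potassium channel interacting protein, at chr5:170008229-170008611. It had 15.3 and 12.9 CPM in DMSO and 0.954 and 0.824 CPM at 24 h, a log2 change of -3.97 (SE 0.16, adjusted p = 1.21e-19), or 15.6-fold lower. Both 24 h libraries were far below both DMSO libraries, and the 2 h libraries (3.57 and 4.35 CPM) and 4 h libraries (2.00 and 2.16 CPM) lay between them. Between HMGA2, which encodes an architectural chromatin protein, and LLPH, the region chr12:66508913-66509375 went from 13.8 and 14.1 to 1.15 and 1.30 CPM (log2 change -3.51, SE 0.14, adjusted p = 1.47e-19). A second region on that stretch of chromosome 12, inside IRAK3, a negative regulator of Toll-like receptor signalling, went from 14.6 and 12.2 to 1.15 and 1.58 CPM (log2 change -3.27, SE 0.15). Both regions lie on either side of LLPH and had similar DMSO and 24 h levels. The most accessible of the deepest losses lay between CDC5L, a splicing factor gene, and SUPT3H at chr6:44628171-44628686, with 42.5 and 38.4 CPM in DMSO and 4.34 and 3.61 CPM at 24 h, 10.1-fold lower (adjusted p = 6.80e-23).

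The 15 largest decreases (mean count 30 or more) lay on 11 chromosomes, 4 of them inside a gene and 10 between 2 genes. Their log2 changes ran from -3.97 to -2.81. Besides those above, they lay inside ARID4B, which encodes a subunit of a histone deacetylase complex, and COL25A1, which encodes a membrane collagen. One was near ACSM3 and THUMPD1. The intergenic ones lay between PGRMC2 and JADE1, HUNK and MIS18A, GDAP1L1 and FITM2, SPHKAP and PID1, EGLN3 and SPTSSA, FCRLB and DUSP12, CHD6 and PTPRT, and RPS6KA4 and SLC22A11. The region between HUNK and MIS18A fell step by step, with 12.1 and 11.5 CPM in DMSO, 6.47 and 6.80 at 2 h, 4.42 and 3.92 at 4 h, and 1.05 and 1.43 at 24 h. The region between RPS6KA4 and SLC22A11 was at 16.9 and 15.4 CPM in DMSO, 3.25 and 2.68 at 4 h, and 2.17 and 2.28 at 24 h. Over the 15 regions the median log2 change from DMSO was -1.66 after 2 h and -2.21 after 4 h, and -3.20 by 24 h. All 15 were called lower at 2 h (background 4.25%) and at 4 h (5.44%), and 13 were called lower at 24 h than at 4 h (13.9%). These comparisons share the DMSO or the 24 h libraries that chose the regions, so the counts describe them and support nothing.

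The 15 largest increases started from 1.12 to 5.45 CPM in DMSO and reached 4.78 to 16.7 CPM at 24 h. The first lay inside GPT2, which encodes a mitochondrial alanine aminotransferase, at chr16:46952967-46953101, with 1.34 and 0.900 CPM in DMSO and 5.03 and 5.04 CPM at 24 h (log2 change 2.21, SE 0.20, adjusted p = 5.90e-11). Inside PPP1R18, whose product targets a phosphatase to actin, a region rose from 1.23 and 1.60 to 5.69 and 5.58 CPM (log2 change 1.95, SE 0.18). In VSTM4, a gene of a membrane immunoglobulin protein, the levels were 3.36 and 3.32 CPM in DMSO, 4.68 and 4.36 at 4 h, and 10.6 and 12.1 at 24 h (log2 change 1.77, SE 0.13). In each of these 3 regions the 24 h libraries stood clear of all 6 others. The strongest of the 15 by level lay between UMODL1 and ABCG1, a cholesterol exporter gene, and rose from 4.71 and 5.79 to 16.3 and 17.1 CPM.

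Other large gains lay inside MTHFD1L (mitochondrial folate metabolism), KREMEN1 (a co-receptor of Wnt inhibitors), ACOT11, ERBB2 (a receptor tyrosine kinase), KSR1 (a scaffold of the MAP kinase cascade) and EPS15 (endocytosis), with LRRC4C the nearest gene of another. Intergenic ones lay between ZCCHC24 and EIF5AL1, SLITRK1 and SLITRK6, and UBE2E3 and ITGA4. Over the 15 gains the median log2 change was 0.17 after 2 h and 0.51 after 4 h, and 1.65 by 24 h. None was called at 2 h (background 0.978% higher) and 4 at 4 h (1.75%), while all 15 were higher at 24 h than at 4 h (8.73%). As for the losses, these counts rest on shared libraries and on regions chosen for their 24 h values.

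**Figure D3:**
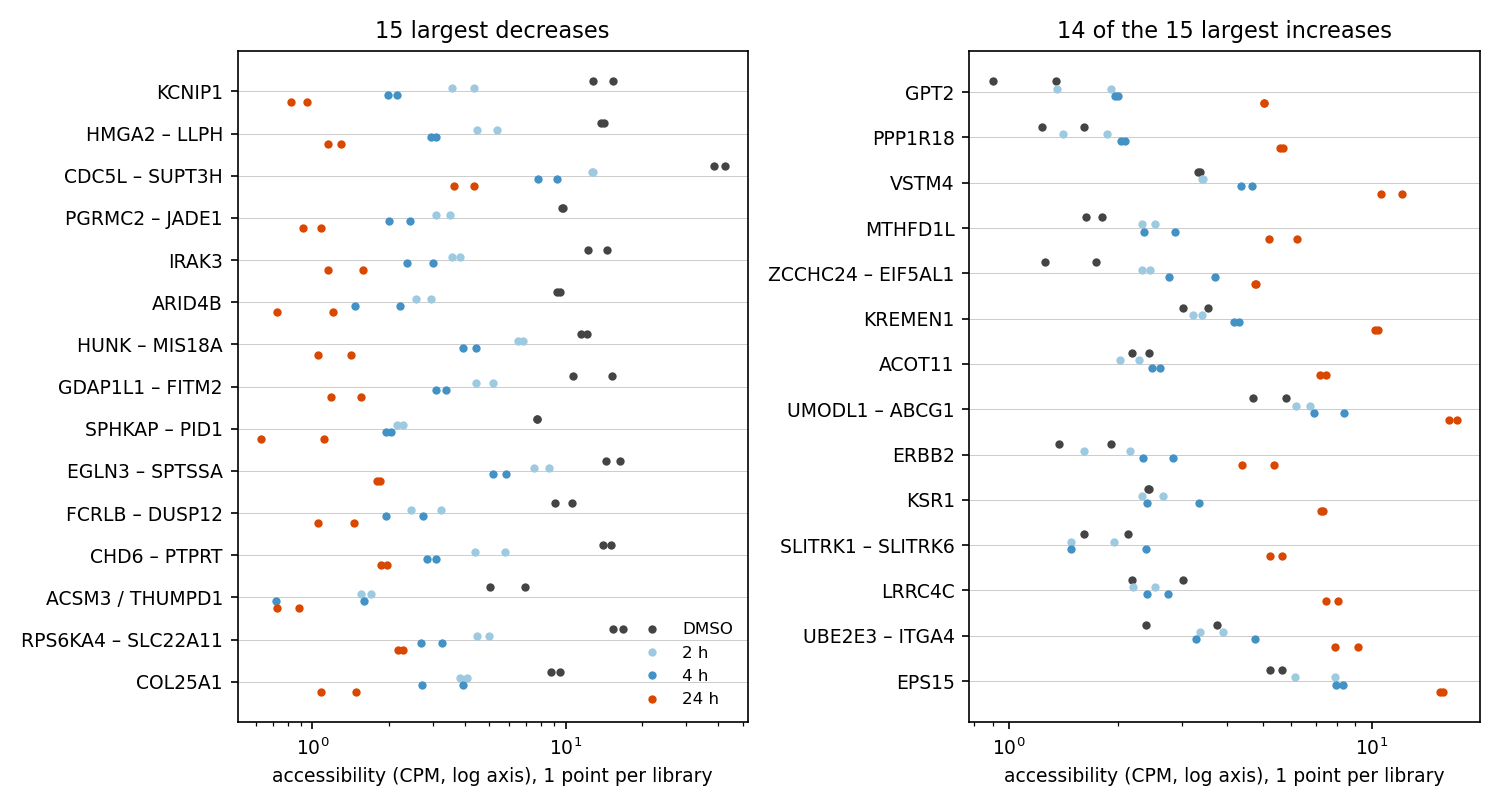
Accessibility in CPM (log axis) of the 15 regions with the largest decreases (left) and 14 of the 15 with the largest increases (right), 1 point per library for DMSO, 2 h, 4 h and 24 h of dTAG47, labelled by the gene that holds the region or the genes beside it. Decreases were already under way at 2 h, with a median log2 change of -1.66, while increases stood mainly at 24 h.

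Among regions with at least 20 CPM in 1 of the groups, the deepest losses after the one beside CDC5L included regions inside PIPOX, COL27A1 and NELL1. PIPOX, which encodes a peroxisomal sarcosine oxidase, has been reported as a target of the fusion. Its region chr17:27377968-27378827 had 48.1 and 49.2 CPM in DMSO, 20.3 and 18.0 at 2 h, 14.9 and 14.1 at 4 h, and 8.68 and 7.07 at 24 h (log2 change -2.63, SE 0.08, adjusted p = 3.54e-22). In NELL1, a secreted protein gene, the region at chr11:20791814-20792427 fell from 25.9 and 25.5 to 4.73 and 4.44 CPM, with 6.25 and 5.56 CPM already at 4 h. The COL27A1 region was slower: its log2 change was -0.78 after 2 h and -1.27 after 4 h, and had reached -2.49 by 24 h. The matching gains did not exceed a log2 change of 1.2. They lay inside ELL, a transcription elongation factor gene (11.6 and 10.1 to 23.4 and 25.9 CPM), between KLF4 and ACTL7B, near THUMPD2, inside AOPEP, and at the start of UNC45B. UNC45B encodes the chaperone that folds muscle myosin. Its start region chr17:33474133-33474834 had 12.5 and 11.8 CPM in DMSO, 13.1 and 13.3 at 2 h, 14.7 and 14.7 at 4 h, and 25.7 and 25.3 at 24 h (log2 change 1.07, SE 0.08, adjusted p = 9.23e-13).

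Accessibility also differed between the 4 h and 24 h groups. In the direct test of 24 h against 4 h, 7889 regions (13.9%) were lower and 4972 (8.73%) higher at 24 h, from libraries that also include the 24 h pair of the comparison with DMSO. For the regions that fell at least 2-fold by 24 h, the median log2 change went from -0.56 (2 h) through -0.77 (4 h) to -1.25. For those that rose at least 2-fold the medians were 0.21, 0.36 and 1.12. Against the same DMSO libraries, 2 h gave 2418 lower and 557 higher regions and 4 h gave 3099 and 995. Counts of 24 h against 4 h depended on single libraries: dropping 24 h library B left 2828 regions higher, dropping 4 h library B left 2667, and dropping 4 h library A left 3200 higher and 5038 lower.

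The separate 6211 experiment gave a measurement at 2 h that shares no library with these. Of the tested regions, 29639 had a single partner there by 50% reciprocal overlap, of which 5.05% were lower and 1.92% higher after 2 h in 6211. Among the 10611 regions lower at 24 h, 6897 had a partner, and 17.9% of these partners were lower at 2 h. Among regions that fell at least 2-fold by 24 h, 715 had a partner, 469 of them (65.6%) were lower at 2 h in 6211, and the median log2 change there was -0.63. Of the 15 deepest losses 13 had a partner, and all 13 were lower there, with log2 changes from -2.25 to -0.94. The KCNIP1 region, for example, had 21.1 and 23.1 CPM in DMSO of 6211 and 4.99 and 6.29 CPM after 2 h. Of 3593 higher regions with a partner, 160 (4.45%) were higher at 2 h. Of the 248 that rose at least 2-fold, 29 had a partner (11.7%, against 52.0% of all regions), and 4 of the 29 were higher there. In the weakest of the 4 groups by mean CPM, 1 of 174 such gains had a partner, against 135 of 438 large losses and 728 of all 14237 regions of that group. None of the 15 largest gains had a partner, so they could not be compared. Experiment 6211 has no library later than 2 h, so regions open mainly at 24 h may be missing from it. The part of this in the shares with a partner was not tested.

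Around the fusion partners and genes reported as fusion targets, losses outnumbered gains. Within 50 kb of these 16 genes lay 176 regions, of which 58 (33.0%) were lower and 20 (11.4%) higher, against 18.6% and 13.6% over all regions, and the median log2 change was -0.06. The list was named for the fusion's targets with earlier results of these data known, so its direction is no independent evidence, and no set test was made. DESeq2 called 10 of these regions higher instead of 20. Most of the 58 losses lay around ALK, PIPOX, ASS1 and PRDM12. Outside these windows the shares lower and higher were near those of all regions. IGF1R, for example, had 5 of 30 regions lower and 4 higher. PIPOX had 10 of 16 regions lower and 1 higher. ALK, a receptor tyrosine kinase gene, had 15 of 33 lower and 3 higher, while the region at its start was at 61.2 and 59.5 CPM in DMSO and 65.0 and 58.8 CPM at 24 h (adjusted p = 0.674). Its largest loss, chr2:30057540-30057679 inside the gene, went from 5.94 and 5.44 to 2.17 and 2.57 CPM (log2 change -1.25, SE 0.15). The losses at ALK were thus away from its start.

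ASS1, which encodes argininosuccinate synthase of the urea cycle, held changes in both directions. Of 15 regions in its window 9 were lower and 2 higher, against 18.6% and 13.6% over all regions. The deepest, chr9:133346738-133347634, went from 34.4 and 34.5 CPM in DMSO to 13.1 and 12.5 at 4 h and 10.1 and 12.5 at 24 h (log2 change -1.61, SE 0.08, adjusted p = 6.35e-17). The region at the start of ASS1 rose in the same libraries, from 22.7 and 21.1 to 28.2 and 28.2 CPM (log2 change 0.37, SE 0.07, adjusted p = 1.19e-04). At its neighbour PRDM12, a zinc-finger gene of sensory neuron development, 5 of 9 regions were lower and the start was among them, from 46.9 and 44.3 to 28.5 and 27.6 CPM (log2 change -0.70, SE 0.06, adjusted p = 4.73e-11). FGFR4, a receptor tyrosine kinase gene, had 3 of 8 regions lower, the largest with a log2 change of -0.63, and a start at 34.62 and 37.98 CPM against 37.94 and 37.89 (adjusted p = 0.599). The start of PAX3 itself was at 64.7 and 63.3 CPM in DMSO and 62.8 and 61.7 at 24 h (adjusted p = 0.632). FOXO1 had 1 of 7 regions lower and 1 higher. The lower one, inside the gene, was at 17.4 and 18.1 CPM in DMSO, 18.6 and 18.3 at 4 h, and 11.84 and 12.04 at 24 h (log2 change -0.58, SE 0.08). The higher one, chr13:41152260-41152600, went from 9.47 and 9.07 CPM in DMSO to 12.1 and 12.6 at 24 h (log2 change 0.42, SE 0.10), after log2 changes from DMSO of -0.52 at 2 h and -0.48 at 4 h. MYCN, a MYC family gene, had 1 of 12 regions lower (log2 change -0.29) and 4 higher, its start included (55.6 and 55.3 to 64.3 and 59.6 CPM, log2 change 0.16, adjusted p = 0.0234), a call lost in DESeq2 and when DMSO library B or 24 h library A was dropped (highest adjusted p 0.295). CNR1 had no region in its window, and neither of the 2 regions beside TFAP2A was called.

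Among the myogenic regulators, most regions around MYOG rose, while those around MYOD1 moved in both directions. MYOG, the factor that drives terminal differentiation of myoblasts, had 11 of 18 regions higher and 0 lower. Over all regions 13.6% were higher and 18.6% lower. The largest change in the window lay 33.3 kb from the gene, at chr1:203018314-203018707. That region went from 3.70 and 4.77 CPM in DMSO to 5.90 and 5.32 at 4 h and 9.40 and 9.76 at 24 h (log2 change 1.15, SE 0.13, adjusted p = 4.83e-09). At the start of MYOG the 24 h libraries (91.5 and 100.2 CPM) lay above the DMSO libraries (80.7 and 84.0 CPM), with a log2 change of 0.22 (SE 0.05, adjusted p = 0.00107), a call lost without 24 h library B (adjusted p = 0.0818). MYOD1, the factor that commits cells to the muscle lineage, had 6 of 16 regions lower and 2 higher. Its start did not pass the test, with 91.6 and 96.3 CPM in DMSO and 94.0 and 91.9 at 24 h (log2 change -0.02, SE 0.05, adjusted p = 0.831). The deepest of the 6 losses, chr11:17745554-17747338, went from a mean of 60.6 ± 4.80 to 35.7 ± 0.161 CPM (SD, n = 2; log2 change -0.76, SE 0.06). The larger of the 2 gains, chr11:17731403-17731583 about 9.4 kb from the gene, rose from 2.52 and 2.50 to 5.29 and 4.97 CPM (log2 change 1.03, SE 0.15). Whether the MYOG and MYOD1 windows differ was not tested.

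Of the other myogenic regulators, PAX7, the paralogue of PAX3 that marks muscle stem cells, had 5 of 8 regions lower and 1 higher. The largest loss, chr1:19104982-19105330, about 30 kb from the gene, went from 11.2 and 12.8 to 5.46 and 5.39 CPM (log2 change -1.16, SE 0.11). The region that rose, chr1:19122007-19122340, went from 6.05 and 5.24 to 9.77 and 9.25 CPM (log2 change 0.77, SE 0.12). MEF2A and MEF2D, partners of the MYOD family, had 2 of 8 regions higher and 2 of 12 lower, and the 8 regions of MEF2C and the regions of MYF5 and MYF6 held no call. Over the whole list, 14 of 79 regions (17.7%) were lower and 19 (24.1%) higher, against 18.6% and 13.6% over all regions, so the share lower was near that of all regions. DESeq2 called 12 of the 79 higher. MYOG, with 18 of these regions, supplied 11 of the 19 higher ones, and outside its window the share higher was near that of all regions.

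Regions around genes of the contractile apparatus and the neuromuscular synapse were more often higher than lower, gene starts included. Around the 15 genes of that list 40 of 109 regions (36.7%) were higher and 13 (11.9%) lower, against 13.6% and 18.6% over all regions, with a median log2 change of 0.15, against 0.03 at 2 h and 0.05 at 4 h. The share higher was 50% within 10 kb of the genes (27 regions) and 30.7% within 100 kb (51 regions). The count of lower regions was 8 instead of 13 in DESeq2, and also when either DMSO library B or the A library of 24 h was dropped. Of the 11 genes with a region at their start, 7 had it higher and 1 lower, while over the other 64 listed genes 6 of 46 starts were higher and 2 lower. This list, too, was chosen with earlier results of these data known. Its direction is therefore no independent evidence, and no set test was made. TNNI1, the slow troponin I gene, went at its start from 30.1 and 30.4 CPM in DMSO to 44.3 and 47.4 CPM at 24 h (log2 change 0.60, SE 0.06, adjusted p = 3.70e-09). At ACTC1, the cardiac actin gene that embryonic skeletal muscle also uses, the start rose from 56.7 and 62.8 to 81.3 and 77.2 CPM (log2 change 0.40, SE 0.05, adjusted p = 2.54e-07). CKM, the muscle creatine kinase gene, rose from 5.66 and 6.45 to 9.63 and 10.2 CPM (log2 change 0.70, SE 0.12, adjusted p = 1.23e-05). The 24 h libraries stood above the DMSO libraries at each of these starts.

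The embryonic myosin gene MYH3 had 5.49 and 5.55 CPM at its start in DMSO and 7.990 and 8.998 CPM at 24 h (log2 change 0.62, SE 0.13). CHRND, the delta subunit of the muscle acetylcholine receptor, had 68.4 and 74.4 against 84.4 and 81.5 CPM (log2 change 0.21, SE 0.05, adjusted p = 0.00170). The start of ACTA1, the skeletal actin gene, rose from 17.5 and 19.3 to 22.9 and 20.7 CPM (log2 change 0.23, adjusted p = 0.0337), and that of DES, the gene of the intermediate filament desmin, from 18.8 and 19.8 to 22.3 and 23.1 CPM (log2 change 0.23, adjusted p = 0.0187). Both of these small changes lost their call in DESeq2 and without single libraries (highest adjusted p 0.295 for ACTA1 and 0.116 for DES). The starts of TTN, NEB and CHRNA1 did not pass the test (adjusted p = 0.575, 0.0911 and 0.856). TNNT3, the fast troponin T gene, went the other way at its start, from 28.6 and 28.1 to 23.5 and 24.5 CPM (log2 change -0.24, SE 0.07), a call lost in DESeq2 and without 24 h library A. Beyond the starts, a region inside ACTC1 rose from 4.03 and 4.62 to 9.77 and 9.63 CPM (log2 change 1.15), and one about 41.5 kb from CHRND from 6.61 and 7.55 to 15.0 and 14.8 CPM (log2 change 1.06).

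At 4 h only the TNNI1 start, among the 7, had been called higher (log2 change 0.32, adjusted p = 0.0011). Between 4 h and 24 h the starts of TNNI1, ACTC1, CKM and MYH3 rose further, by log2 changes of 0.28, 0.29, 0.39 and 0.40 (adjusted p = 0.00102, 8.78e-05, 0.00827 and 0.0149). Those of CHRND, ACTA1 and DES had log2 changes of 0.08, 0.17 and 0.14 over that time and did not pass the test. The 2 largest losses within the same list were already present at 4 h: 35.3 kb from MYH8 a region had 26.8 and 25.2 CPM in DMSO, 8.98 and 8.75 at 4 h, and 7.63 and 7.13 at 24 h (log2 change -1.81, SE 0.09), and a region inside TTN, the titin gene, had 5.66 and 4.62 CPM in DMSO, 2.13 and 2.72 at 4 h, and 1.78 and 2.28 at 24 h. In bulk libraries a larger share of cells with an open region and a more open region in each cell cannot be told apart.

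**Figure D4:**
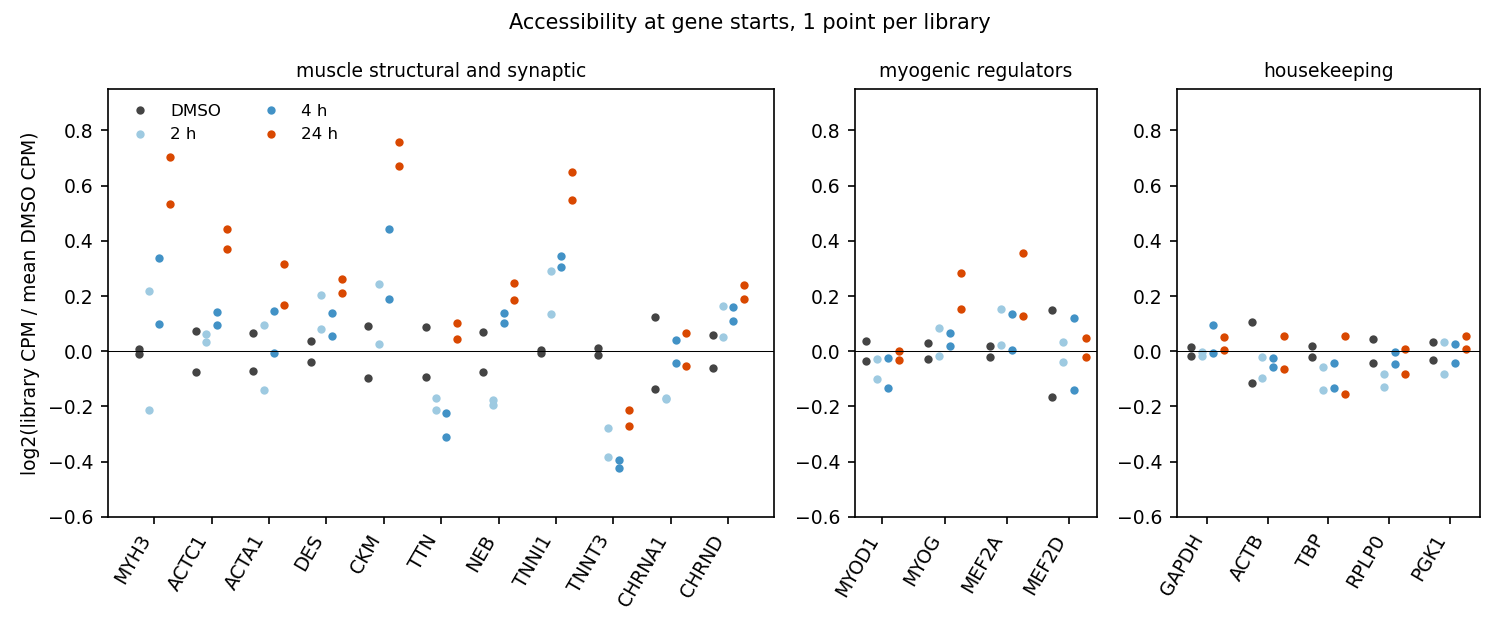
Accessibility at the start of muscle, myogenic and housekeeping genes in each library, as the log2 ratio of its CPM to the mean DMSO CPM, with 1 point per library for DMSO, 2 h, 4 h and 24 h of dTAG47. The 24 h points of MYH3, CKM and TNNI1 lie highest, TNNT3 lies below its DMSO points, and the 5 housekeeping starts stay near 0.

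The sequences before these starts are shown because the regions there gained reads. They are the 250 bases upstream of the start in RefSeq GRCh38.p14, written 5′ to 3′ on the gene's strand, for the muscle genes with a higher start region that the RefSeq table held (5 of 9, with UNC45B and MYOG counted). The coordinates are on GRCh38, not on the hg19 of the regions. Capitals mark an E-box, CANNTG, which the MYOD family binds, or a CArG box, which serum response factor binds at actin genes. Both motifs were searched on both strands, and their matches did not overlap.
MYOG, chr1:203086013-203086262, minus strand: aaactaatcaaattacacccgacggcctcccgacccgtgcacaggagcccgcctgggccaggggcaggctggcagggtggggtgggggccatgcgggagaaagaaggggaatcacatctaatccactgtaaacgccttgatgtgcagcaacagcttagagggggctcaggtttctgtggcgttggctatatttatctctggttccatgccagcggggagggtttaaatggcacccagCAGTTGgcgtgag
ACTC1, chr15:34795550-34795799, minus strand: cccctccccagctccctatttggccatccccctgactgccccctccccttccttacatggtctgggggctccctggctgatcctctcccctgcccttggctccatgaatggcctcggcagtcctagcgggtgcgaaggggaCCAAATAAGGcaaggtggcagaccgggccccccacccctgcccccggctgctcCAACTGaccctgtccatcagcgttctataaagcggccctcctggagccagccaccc
ACTA1, chr1:229434095-229434344, minus strand: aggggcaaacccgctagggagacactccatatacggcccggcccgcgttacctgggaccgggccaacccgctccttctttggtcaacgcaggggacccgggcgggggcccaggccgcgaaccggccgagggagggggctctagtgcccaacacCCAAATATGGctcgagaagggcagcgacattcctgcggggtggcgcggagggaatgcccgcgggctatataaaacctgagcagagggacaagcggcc
CKM, chr19:45322876-45323125, minus strand: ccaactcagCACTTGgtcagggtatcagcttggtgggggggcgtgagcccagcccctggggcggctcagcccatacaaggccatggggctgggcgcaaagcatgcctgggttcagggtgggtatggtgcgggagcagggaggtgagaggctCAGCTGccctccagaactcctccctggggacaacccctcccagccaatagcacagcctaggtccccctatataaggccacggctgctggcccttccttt
CHRND, chr2:232525910-232526159, plus strand: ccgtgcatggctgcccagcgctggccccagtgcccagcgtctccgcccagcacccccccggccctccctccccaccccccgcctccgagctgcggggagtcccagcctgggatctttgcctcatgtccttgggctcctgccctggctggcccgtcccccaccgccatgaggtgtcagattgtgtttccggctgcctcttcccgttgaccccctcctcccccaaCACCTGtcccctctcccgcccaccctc
MYOG, ACTC1 and CHRND each held 1 E-box, CKM held 2 and ACTA1 held 0. One E-box or more stood in 61.8% of the 35116 upstream windows of the table, so its presence is common. CKM had the form CAGCTG (13.99% of windows) and CHRND the form CACCTG, searched together with its reverse complement CAGGTG (17.5%). ACTC1 and ACTA1 each held 1 CArG box, which 1.16% of windows had. A match describes the letters only, and binding was not measured.

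Around the AP-1 subunits 22 of 124 regions (17.7%) were lower and 11 (8.87%) higher, against 18.6% and 13.6% over all regions, and none of the 7 start regions was called. The share lower was near that of all regions. Dropping DMSO library A left 7 higher regions. Dropping a 24 h library left 6 (library A) or 4 (library B), and DESeq2 called 3. The lower regions numbered 13 in DESeq2 and when the B library of 24 h was dropped. Within 10 kb of these genes 5 regions were lower (11.1%) and 7 higher (15.6%), so the order depended on the flank. The 2 largest losses around these genes appeared after 4 h: 37.1 kb from JUND a region had 6.83 and 6.41 CPM in DMSO, 6.07 and 6.19 at 4 h, and 3.26 and 3.04 at 24 h (log2 change -1.07, SE 0.14), and 24.5 kb from JUN another had 13.7 and 12.9, then 13.8 and 13.4, then 7.30 and 7.89 CPM (log2 change -0.80, SE 0.10). Both differed between 4 h and 24 h (adjusted p = 2.09e-06 and 5.39e-08). Around the genes of the YAP and TEAD pathway, which relays cell density and tension, 15 of 81 regions were lower (18.5%) and 17 higher (20.99%), and 0 of 7 starts was called. That share lower, too, was near the 18.6% of all regions, and DESeq2 called 9 lower. Within 100 kb 22 regions were lower (20.95%) and 19 higher (18.1%), so here too the order depended on the flank. AMOTL2, an angiomotin gene that restrains YAP, had 9 of its 13 regions higher and 0 lower, although its start did not pass (69.8 and 71.5 against 70.1 and 77.0 CPM, adjusted p = 0.451). The largest of the 9, inside the gene, rose from 3.47 and 3.01 to 6.44 and 6.84 CPM (log2 change 1.05, SE 0.14). A region inside TEAD1, a DNA-binding partner of YAP, rose from 5.99 and 5.24 to 10.0 and 10.3 CPM, and one 32.7 kb from TEAD4 fell from 20.7 and 16.5 to 8.88 and 8.97 CPM.

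Of the cell cycle genes, CDKN1B, an inhibitor of cyclin-dependent kinases, had a higher start (8.23 and 8.76 to 11.3 and 11.2 CPM, log2 change 0.40, SE 0.11), and CCND3, the cyclin D gene of differentiating muscle, held a region that fell from 7.56 and 7.08 to 2.43 and 2.60 CPM (log2 change -1.53, SE 0.15). The windows of CCND1 and CCND2 held no call in 7 regions each. Near CDKN1A 3 of 8 regions were lower and 2 higher. Over the whole cell cycle list 8 of 53 regions (15.1%) were lower and 6 (11.3%) higher, against 18.6% and 13.6% over all regions. In the Notch list, HES1, a Notch target that holds back differentiation, had 4 of 9 regions lower, the largest 46.2 kb away (13.7 and 11.3 to 6.51 and 5.89 CPM, log2 change -0.99, SE 0.11), and its start higher (31.8 and 36.6 to 40.8 and 41.2 CPM, log2 change 0.25), a call lost without DMSO library A. Around JAG1, a Notch ligand gene, 2 of 5 regions were lower. Over the whole Notch list 12 of 56 regions (21.4%) were lower and 5 (8.93%) higher. At the same flank, other settings gave 5 to 13 lower and 2 to 8 higher. Within 10 kb 8 (32%) were lower and 4 (16%) higher, and within 100 kb 17 (18.5%) were lower and 13 (14.1%) higher. No set test was made for either list. For comparison, 4 of 49 regions around the housekeeping genes were lower (8.16%) and 4 higher, and none of the 5 housekeeping starts was called. Without DMSO library B 2 of these regions were lower, and in DESeq2 1 was. Within 10 kb of the housekeeping genes 2 regions were lower (15.4%) and 0 higher. Within 100 kb 10 were lower (12.5%) and 11 higher (13.75%). Around the 4 genes of other cell types 8 of 21 regions (38.1%, against 18.6% over all regions) were lower and 0 higher, 4 of the 8 near GFAP.

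**Figure D5:**
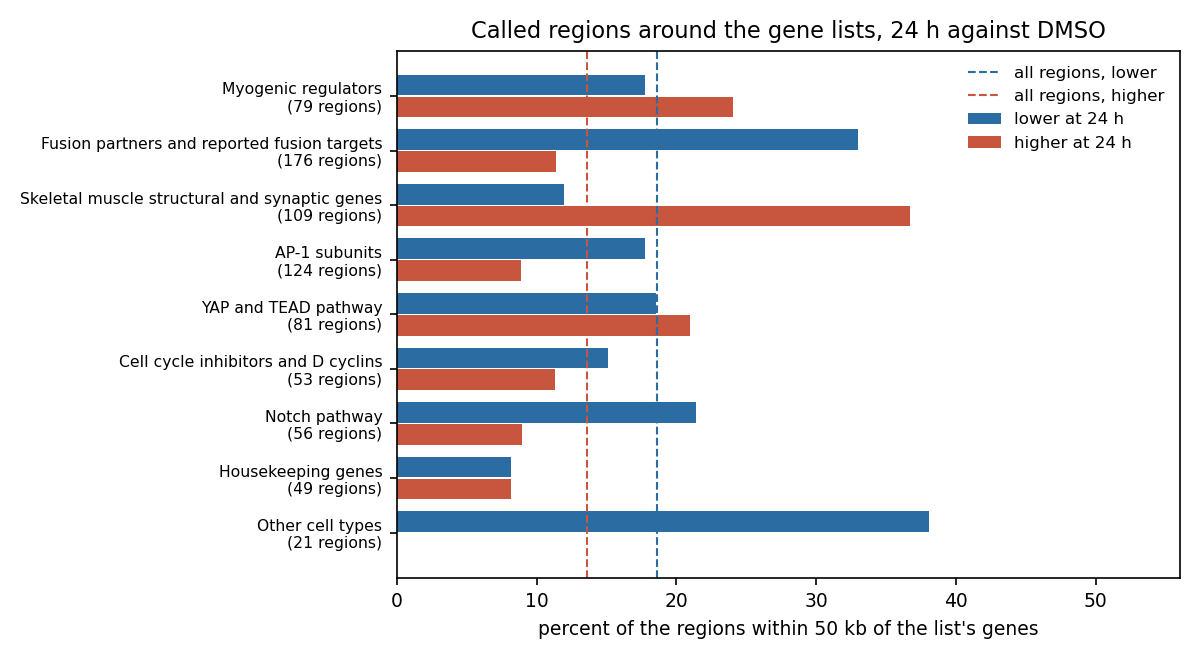
Percent of the tested regions within 50 kb of the genes of each list that were called lower (blue) or higher (red) at 24 h, with dashed lines at the shares over all regions (18.6% lower and 13.6% higher). The muscle structural list has the largest share higher, 36.7%, while the fusion list has 33.0% lower and the small list of other cell types 38.1% lower. Most of the losses of the fusion list lay around ALK, PIPOX, ASS1 and PRDM12.

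Some large losses lay beside each other. When regions that fell at least 2-fold were joined across up to 100 kb, 334 of 1109 (30.1%) stood in 149 groups of at least 2, and the largest group held 8. That group spanned chr9:89134249-89436640, in the interval between TUT7 and GAS1, a hedgehog co-receptor gene, where 14 of 24 regions were lower and 0 higher. Its 8 regions had log2 changes from -1.93 to -1.09 and a median of -1.45, after -0.79 at 2 h and -0.90 at 4 h. The next held 6 regions over chr1:15664244-15811265, from FHAD1 across EFHD2 and CTRC to the elastase genes CELA2A and CELA2B, with 12 of 21 regions lower and 2 higher. Both groups were picked for their size after their values were seen. Of 248 large gains 20 (8.06%) stood in groups, none larger than 2. There were fewer large gains than losses, so the shares are not comparable. No share was computed for an equal number of other regions, so the 30.1% has no background beside it.

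The authors' deposited table of the same comparison had 7125 regions lower and 4198 higher at an adjusted p under 0.05. All of these were called here in the same direction, with 0 called in the opposite direction. The authors' counts equal those of DESeq2 run here on the same libraries, so the match is no independent evidence. For the KCNIP1 region the authors' deposited table gives a log2 fold change of -3.98, and for the GPT2 region 2.20.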

How the data were processed

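Per the submitters' processing notes the tools were deepTools, DESeq2, DiffBind, Genrich 0.6.1, Bowtie2 and Trimmomatic 0.32, with no roles given, and the builds dm3 and hg19. Region coordinates were read as hg19, the human build of the pair. Read shifting, duplicate removal and peak merging are not given in the sources used here. Deposited values are raw read counts per region. The authors' deposited 24 h comparison table also holds log2 fold changes and adjusted p-values, used only for comparison. Column names gave treatment and time; 0 per-library columns lay outside the groups.

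The test was edgeR 4.0.16's quasi-likelihood test, run in R 4.3.3 (TMM, filterByExpr, 1 fit over all 8 libraries of 6086 without a block, 4 residual degrees of freedom, coefficient of variation 3.48%). A standard error is the log2 change divided by the square root of F. The script was tested on simulated data. Depth per library is its reads in regions.

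Regions were named by size of change: among called regions whose mean count reached 30 and whose 24 h libraries both lay on 1 side of the DMSO pair, the 15 lowest and 15 highest log2 changes, the 5 lowest and 5 highest with at least 20 CPM in a group, and the largest called change within 50 kb of each gene of 9 lists. Start regions lay within 2 kb of a start and were named for all listed genes. Members and lists were chosen with earlier results of these data known. Gene positions on hg19 were written by hand from general knowledge; against RefSeq GRCh38.p14, 80 of 80 genes matched in chromosome and order and 75 in length within 20% or 1 kb, and 79 were used, leaving out PECAM1, whose length differed. Matching to 6211 used bedtools 2.31.1.

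The alternatives were DESeq2 1.42.0, other scalings and filters, a fit of only the groups compared, a minimum fold, the column letter as a replicate block, other flanks, and each library left out. Dropping 4 h libraries, and running the alternatives on start regions, were added after seeing the data. Figures and tables used Python 3.11.15. A few named regions and 1 listed gene are not reported here.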

Additional observations from a re-analysis of the deposited data

How the results depend on the processing

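All 39 regions named by size of change kept their direction and call in each of 13 alternatives (507 values). Of 77 leading or start regions of the gene lists, 21 lost their call in at least 1 alternative (52 of 1000 values) and 0 reversed. Over all regions, losses outnumbered gains in each alternative, against DMSO and against 4 h, but the counts varied. Around the AP-1 and YAP lists the order of losses and gains depended on the flank. DESeq2 called 7125 lower and 4198 higher regions at 24 h against DMSO and 4025 lower and 1870 higher against 4 h. Testing for a change beyond 1.2-fold left 5334 lower and 2744 higher. Library size alone gave 9666 lower and 9044 higher, so losses made up 51.7% of calls instead of 57.8%. The cause was not tested. Leaving out 1 library gave 8520 to 9364 lower and 5404 to 7018 higher regions against DMSO, and 5038 to 8620 lower and 2667 to 6181 higher against 4 h. The lone library left in a group was assumed to vary like the other groups.

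With the column letter as a replicate block, 10350 regions were lower and 7486 higher against DMSO, and 7594 and 4643 against 4 h. The letters share only a name: the correlation of the A minus B differences was -0.04 between DMSO and 24 h, and the labels tie no letter to a replicate number. Depth limits weak regions: the standard error of the log2 change was 0.22 for the region near ACSM3 and THUMPD1 (under 7 CPM) and 0.05 at the start of MYOG.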
